A study of Mus musculus with 12 samples.

Results

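The 33 genes described here cover the steps from glucose uptake to lactate and to the use of pyruvate by pyruvate dehydrogenase. They are among 21631 protein-coding genes on chromosomes 1 to 19 and X. They were listed by function, and each open region was given to a listed gene when the nearest end of any protein-coding gene within 100 kb belonged to it. Regions within 1 kb of that end are called gene-end regions, and all others distal. Of the 33 genes, 32 had a region in at least 1 library. Open chromatin was measured by ATAC-seq, in which the Tn5 transposase inserts adapters where DNA is accessible, in embryoid bodies (aggregates of differentiating mouse embryonic stem cells) led toward mesoderm.

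The 12 libraries formed 6 groups of 2, all without doxycycline. Foxk1 knockout (KO) bodies were taken at days 3, 5 and 10. The comparison arm was the iHA-Foxk1 line, not induced, at days 3 and 5 and libraries labelled Control, with no further description of the line, at day 10. Stem cells of both named lines had been kept on irradiated fibroblast feeders that were removed by plating. KO and comparison cells are different lines, so line and genotype cannot be told apart, and nothing in the labels ties the libraries of a group to separate differentiations. Any p-value therefore measures a spread between libraries that may be technical.

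Each library is a list of peak summits with a score and no read counts, so the read depth is unknown. Lists held 42129 to 59006 summits in the KO of days 3 and 5 and 53473 and 54100 in iHA-Foxk1 at day 3. They held 14519 and 34040 in iHA-Foxk1 at day 5, 10548 and 7764 in the day 10 Control and 4028 and 4755 in the day 10 KO. The first iHA-Foxk1 library of day 5 stands apart as the shortest list of days 3 and 5. Summit names in both KO day 5 lists carry the tag D7, against a label of day 5. Day 10 lists lack a duplicate-removal tag that the others carry, so day 10 and a change of processing cannot be told apart. Mesoderm markers had a gene-end summit for 5 of 6 genes in every library of days 3 and 5 but that short one, which had 1, and for 0 in each day 10 library. Cardiomyocyte markers were also at 0 of 6 in each day 10 library, and fibroblast markers at 0 of 9 after 3 to 6 at days 3 and 5. These counts are over full lists, which differ in length. Over the 4028 highest-scoring summits of each library, cardiomyocyte and fibroblast markers were at 0 at every day. Mesoderm markers were too, except for 1 gene in the short day 5 list, so 0 at day 10 did not set that day apart. Over 14519 summits, the day 5 libraries each had 1 mesoderm marker gene open, save the longer iHA-Foxk1 list with 2. The short list did not stand apart there. On full lists, pluripotency markers had a gene-end summit for 5 and 6 of 6 genes in the KO at day 5 against 1 and 3 in iHA-Foxk1. Over 14519 summits they had one for 3 and 3 against 1 and 2, and over 4028 for 0 in each day 5 library. The part of these differences in the results was not tested. In bulk libraries, fewer cells of a type and less opening per cell cannot be told apart.

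Glycolysis splits glucose into pyruvate, with hexokinase and phosphofructokinase as its early control points. Pyruvate is either reduced to lactate and exported or used inside mitochondria by pyruvate dehydrogenase, which pyruvate dehydrogenase kinases switch off. Embryonic stem cells and early embryos lean on glycolysis, and Foxk1 and its relative Foxk2 are known as inducers of aerobic glycolysis. Foxk factors bind DNA through a forkhead domain, while HIF1A, the oxygen-regulated activator of many glycolytic genes, binds sites with the core ACGTG.

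Promoters of 5 members are shown because their start regions carried the contrasts described further on. Pgk1 and Slc2a1 were open in every library, Pkm held the gene-end region called between genotypes, and Gapdh and Aldoc held start regions called between days. Each sequence runs 250 bases before to 50 bases after an annotated start, 5′ to 3′ along the gene, from RefSeq on GRCm38.p6, the assembly of mm10. Capitals mark ACGTG or its reverse complement CACGT. Pgk1 is shown at chrX:106186850-106187149 (plus strand), Slc2a1 at chr4:119108495-119108794 (plus), Pkm at chr9:59656326-59656625 (plus), Gapdh at chr6:125165724-125166023 (minus) and Aldoc at chr11:78322823-78323122 (plus).
Pgk1: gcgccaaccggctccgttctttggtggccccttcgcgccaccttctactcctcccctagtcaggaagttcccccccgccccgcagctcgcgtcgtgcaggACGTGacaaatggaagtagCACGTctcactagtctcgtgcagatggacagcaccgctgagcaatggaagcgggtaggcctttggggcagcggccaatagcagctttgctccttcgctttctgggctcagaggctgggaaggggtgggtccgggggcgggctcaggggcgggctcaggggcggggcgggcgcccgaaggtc
Slc2a1: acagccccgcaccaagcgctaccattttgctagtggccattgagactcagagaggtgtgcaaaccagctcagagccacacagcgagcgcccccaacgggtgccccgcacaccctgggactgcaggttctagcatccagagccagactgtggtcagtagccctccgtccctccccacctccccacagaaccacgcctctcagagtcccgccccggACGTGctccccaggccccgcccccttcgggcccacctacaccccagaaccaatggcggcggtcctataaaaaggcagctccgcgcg
Pkm: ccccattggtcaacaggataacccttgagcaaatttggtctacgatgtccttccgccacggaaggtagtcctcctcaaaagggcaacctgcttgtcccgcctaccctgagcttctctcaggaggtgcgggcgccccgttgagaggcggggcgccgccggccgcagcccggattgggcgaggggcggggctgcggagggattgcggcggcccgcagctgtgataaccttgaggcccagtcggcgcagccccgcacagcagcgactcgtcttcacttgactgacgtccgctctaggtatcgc
Gapdh: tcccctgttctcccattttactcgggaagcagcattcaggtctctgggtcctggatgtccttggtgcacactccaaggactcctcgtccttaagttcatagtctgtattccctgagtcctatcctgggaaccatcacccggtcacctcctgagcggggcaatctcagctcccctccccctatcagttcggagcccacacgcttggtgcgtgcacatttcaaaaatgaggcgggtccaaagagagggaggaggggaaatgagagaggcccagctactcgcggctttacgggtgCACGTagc
Aldoc: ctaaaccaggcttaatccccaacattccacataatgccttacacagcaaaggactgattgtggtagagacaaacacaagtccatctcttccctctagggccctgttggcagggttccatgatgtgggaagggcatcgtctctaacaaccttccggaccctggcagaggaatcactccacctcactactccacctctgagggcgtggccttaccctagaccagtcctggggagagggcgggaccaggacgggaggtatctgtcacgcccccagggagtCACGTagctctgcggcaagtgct

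The Pgk1 window held a summit in 12 libraries, that of Pkm in 10, those of Slc2a1 and Aldoc in 8 each, and that of Gapdh in 3. Pgk1 carried 2 ACGTG cores, Slc2a1, Gapdh and Aldoc 1 each, and this Pkm window 0. Over all 50 promoter entries of the 31 members with one, counted on both strands, ACGTG occurred in 22 (44%), against 21.1% of all 21045 entries. The E-box CACGTG, whose letters contain ACGTG, occurred in 7 (14%) against 7.91%. The forkhead core GTAAACA occurred in 1 entry (2%), at another start of Aldoc, against 3.03% of all entries. The GC box GGGCGG was found in 48% of member entries and 46.7% of all, CCAAT in 40% and 38.5%, and TATAAA in 6% and 12.7%. Median GC content was 60.5% for members and 56.7% for all entries, and the median number of CG pairs per entry 17.5 and 13. ACGTG contains such a pair, and the part of base composition in its share was not tested. Several entries can belong to the same gene. A match describes letters in these windows and is not a binding site. Slc2a3 and Pdp1 had no promoter entry.

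Nearly all starts of the pathway were open at days 3 and 5, in both genotypes. At day 3 all 31 members with an annotated start had a summit within 1 kb of one in each of the 4 libraries, against 56.5% of 17274 genes. At day 5, 27 of 31 (87.1%) did, against 40.6%, and the same 27 were open in all 8 libraries of days 3 and 5 (39.7% of all genes). Without the first iHA-Foxk1 library of day 5 the count was 29 of 31, against 52.5% of all genes, and without both KO day 5 libraries it stayed at 27. At day 10 only 6 of 31 (19.4%) had one in every library, against 7.47%, and over equal numbers of summits 2 (6.45%), against 5.71%. A gene counted as open by any of its starts. Members had 50 promoter entries for 31 genes and all genes 21045 for 17274, so members had more starts per gene to count. Some member starts also lie beside another gene, as given below. Many of these enzymes are used by most cells, and the shares describe the set without a test against other genes.

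**Figure D1:**
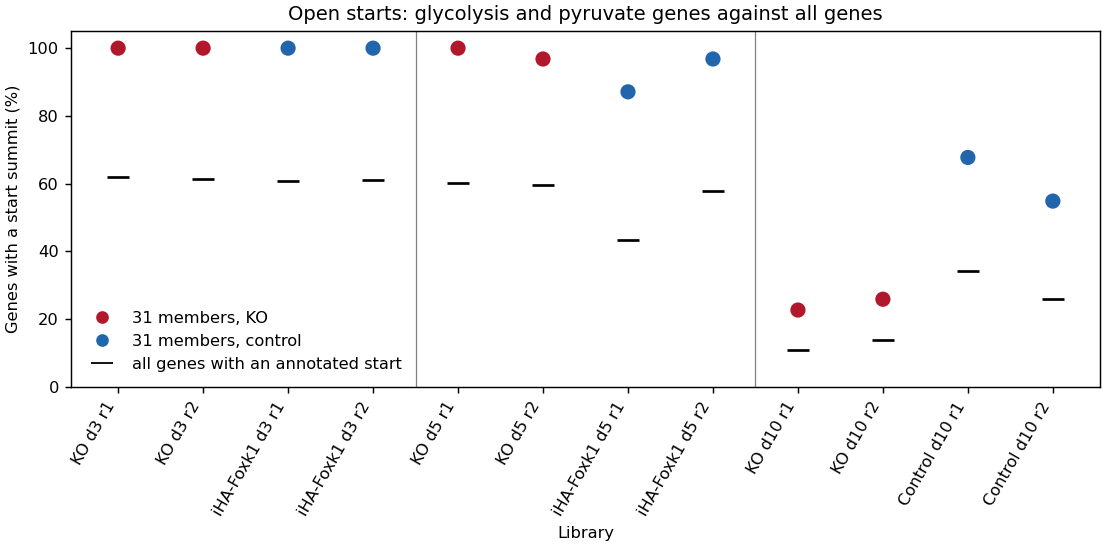
Percentage of genes with a summit within 1 kb of an annotated start (vertical axis, from 0) in each of the 12 libraries, as points for the 31 members and as dashes for all 17274 genes. Members lie between 87.1 and 100% at days 3 and 5, and at 67.7 and 54.8% in the Control and 22.6 and 25.8% in the KO at day 10, above the dash in each library.

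In single libraries, 31 of 31 starts were open in each day 3 library, 31 and 30 in the KO at day 5, and 27 and 30 in iHA-Foxk1 at day 5. At day 10 the Control libraries had 21 and 17 and the KO libraries 7 and 8. The KO lists of day 10 were shorter, and over equal numbers of summits (4028 in each library) members with a gene-end summit numbered 7 and 6 in the Control (21.2 and 18.2%) and 6 and 5 in the KO (18.2 and 15.2%). Among all genes the shares were 13.4 and 12.5% in the Control and 9.44 and 10.3% in the KO. By gene ends in place of starts, 24 of 33 members (72.7%) had a summit in every library of day 3, 20 (60.6%) at day 5 and 5 (15.2%) at day 10, against 51.6%, 35.3% and 6.48% of all genes. Over equal numbers of summits the counts were 24, 19 and 1 (72.7, 57.6 and 3.03%), against 51.4, 30.6 and 5.07% of all genes. At day 10 the member share was thus above that of all genes on full lists and below it over equal numbers.

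Hk1, Pfkm, Pfkfb1, Pfkfb2, Aldoa and Hif1a had no gene-end summit at days 3 and 5, yet each had a start summit in 8 of 8 of these libraries. For Pfkm, Pfkfb1 and Pfkfb2 the nearer gene end was that of Senp1, Apex2 and Yod1, so the open region lies beside both genes and cannot be assigned to either. Summits near the start of Eno3 lay nearer to the end of Pfn1 in all 6 libraries that had them, so they cannot be assigned to either gene. For Hk1, Aldoa and Hif1a the open start lies inside the annotated gene span.

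A score gave only a rank inside its own list, where 0% is the top and 100% the bottom. Lists of days 5 and 10 differ in length, which moves a rank in percent. Orders given for these days are by rank in percent unless position is named. With 2 against 2 libraries no p under 0.333 is possible, so an order without overlap carries no test. Its share over all genes is not given here. In percent at day 3, both iHA-Foxk1 libraries ranked nearer the top for Slc2a1, Pfkfb1, Pfkfb2, Gapdh, Pgk1, Eno1 and Slc16a3. Both KO libraries did for Gpi1, Pfkp, Pfkfb3, Eno2 and Eno3, and the remaining starts overlapped. By median rank over the 4 libraries of day 3, whose lists are of like length, the strongest starts were those of Pgk1 (1.31%), which makes the first ATP of glycolysis, Pfkfb2 (1.67%), beside Yod1, and Hif1a (2.7%). Eno1, the widely expressed enolase, ranked at 3.97%. The weakest were those of Slc16a3 (53.5%), a lactate exporter, Eno2 (64%), the neuronal enolase, and Eno3 (75.7%), the muscle enolase, beside Pfn1. Over all 8 libraries of days 3 and 5, Eno1 (3.69%) stood second and Pfkfb2 was at 5.94%. The starts of Eno1 and Eno2, which catalyse the same step, thus ranged from near the top of the list to below its middle at day 3. The rank at the Eno3 start cannot be assigned to Eno3 alone.

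**Figure D2:**
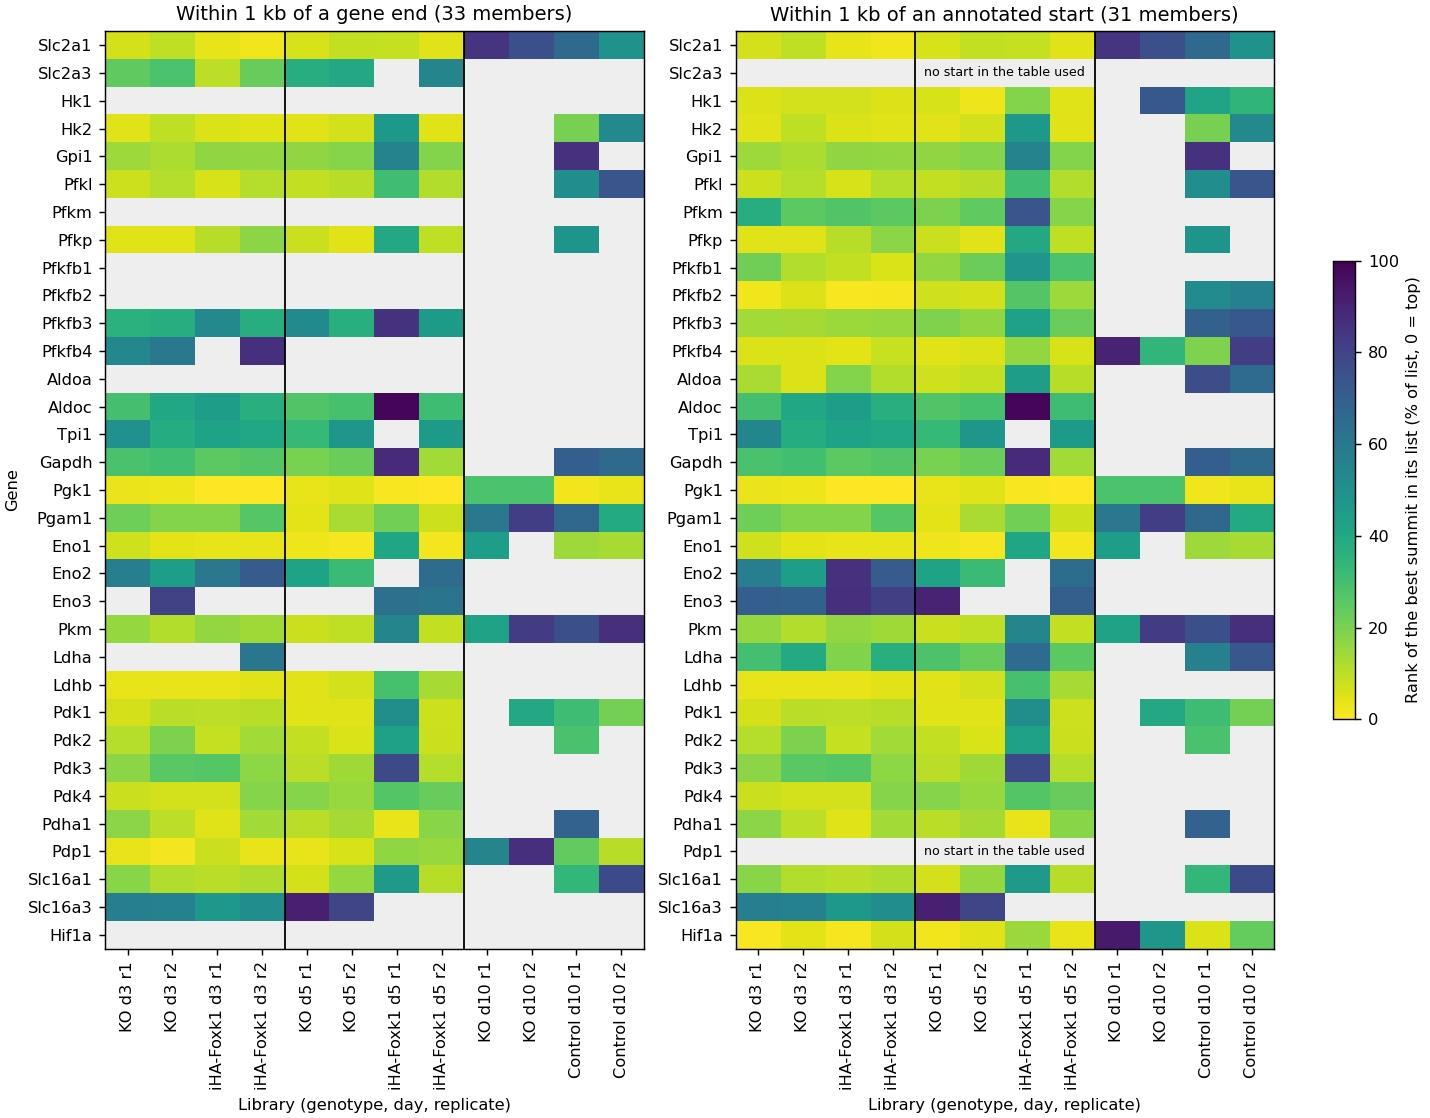
Rank of the best summit in its list (colour, 0% at the top of the list and 100% at the bottom) for each member (rows) in each library (columns), within 1 kb of a gene end on the left and of an annotated start on the right, with grey for no summit. Start summits fill the right panel at days 3 and 5 for 27 of 31 members. Day 10 columns are mostly grey in the KO, whose lists were the shortest.

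Among the glucose transporters, Slc2a1 (GLUT1, the basal transporter) had an open start in all 12 libraries. Its best summit ranked at 6.4 and 9.44% in the KO and at 3.62 and 2.15% in iHA-Foxk1 at day 3, and at 5.93 and 9.11% and at 8.92 and 4.37% at day 5. At day 10 it ranked at 84.8 and 75.5% in the KO and 65.9 and 49.1% in the Control. At day 3 both comparison libraries ranked nearer the top than both KO libraries, and at day 5 the genotypes overlapped in percent. By position at day 5, both iHA-Foxk1 libraries (1295 and 1487) stood nearer the top than both KO libraries (2868 and 3840). At day 10 the order depended on the scale, since by position the KO lists had it at 3417 and 3589 and the longer Control lists at 6948 and 3815.

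Slc2a3 (GLUT3, a high-affinity transporter) had 14 regions, the most of any member. Its region chr6:122811009-122811467, which lies 8875 bp from a gene end, was in all 12 libraries. This distal region ranked between 0.249 and 1.49% at days 3 and 5, at 8.19 and 15.7% in the day 10 Control and at 16.1 and 46.2% in the day 10 KO. A region 615 bp from its gene end (chr6:122801701-122801796) ranked at 24.3 and 28.4% in the KO and at 10.1 and 23.2% in iHA-Foxk1 at day 3. At day 5 the region was present in 1 KO library (39.7%) and 1 iHA-Foxk1 library (54.4%). The other KO library had a summit beside it, at chr6:122801448 (37.5%), so the gene end was open in 2 KO and 1 iHA-Foxk1 libraries, and in none at day 10.

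Of the hexokinases, which trap glucose in the cell, Hk2 (the inducible form) ranked at 4.85 and 9.66% in the KO and at 5.46 and 5.03% in iHA-Foxk1 at day 3. At day 5 it ranked at 4.35 and 6.8% and at 46.7 and 4.64%. At day 10 the Control libraries had it at 20.5 and 52.8% and the KO libraries had none. The genotypes overlapped at days 3 and 5. Hk1, the housekeeping form, was open in 11 libraries.

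In the upper pathway, the starts of Gpi1, Pfkl, Pfkm, Pfkp, Aldoa and Aldoc were open in all 8 libraries of days 3 and 5. Pfkp, the platelet phosphofructokinase, ranked at 4.85 and 4.97% in the KO and at 10.7 and 17.3% in iHA-Foxk1 at day 3, and at 8 and 4.6% and at 39.8 and 9.59% at day 5. Both KO libraries ranked nearer the top than both others at day 3, and by position at day 5 the genotypes overlapped (KO positions 3869 and 1940, iHA-Foxk1 positions 5778 and 3264). At day 10 Pfkp was seen in 1 Control library, at 48.3%. Pfkm, the muscle form, ranked at 37.5 and 25% and at 27.3 and 25.1% at day 3, and at 19.6 and 24.5% and at 73.5 and 18.1% at day 5, with overlapping genotypes and no day 10 summit.

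Tpi1, the triose phosphate isomerase, ranked at 54.2 and 38.2% in the KO and at 41.8 and 40.1% in iHA-Foxk1 at day 3. At day 5 it ranked at 32.9 and 46.9% in the KO and at 45.6% in the longer iHA-Foxk1 list, with no summit in the short one. Its genotypes overlapped at day 3. Pfkfb1 to Pfkfb4, whose products set the level of fructose 2,6-bisphosphate, the activator of phosphofructokinase, all had an open start in 8 of 8 libraries. Pfkfb4 was also open at day 10 in 4 of 4, at 90.6 and 34.3% in the KO and 19.4 and 82% in the Control. Its day 3 ranks were 5.43 and 5.25% in the KO as against 3.99 and 8.44% in iHA-Foxk1, and its day 5 ranks 4.58 and 5.37% and 16.3 and 5.96%. By position the groups overlapped at each day, with 2217 and 2262 in the KO and 2368 and 2030 in the other arm at day 5.

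In the lower pathway, Gapdh, Pgk1, Pgam1, Eno1 and Pkm were open in all 8 libraries of days 3 and 5. Pkm, the pyruvate kinase of most tissues, ranked at 15.8 and 11.5% in the KO and at 16.3 and 14.1% in iHA-Foxk1 at day 3, and at 7.98 and 9.62% and at 54 and 9.25% at day 5. At day 10 it ranked at 42.5 and 82.1% in the KO and 75.5 and 86.6% in the Control. In percent the genotypes overlapped at each day. By position at day 10 they did not, at 1711 and 3906 in the KO and 7967 and 6724 in the Control. Eno2 ranked at 57.1 and 43.8% in the KO and at 85.9 and 70.8% in iHA-Foxk1 at day 3, and at 41.9 and 32% and at 64.5% (1 library) at day 5. Both KO libraries ranked nearer the top at day 3, and no day 10 library had a summit. The start of Eno3, beside Pfn1, ranked at 70.3 and 69% in the KO and at 86 and 81% in iHA-Foxk1 at day 3. At day 5 it ranked at 90.5% in 1 KO and 69.7% in 1 iHA-Foxk1 library, so its order differed between these days.

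Lactate dehydrogenase converts pyruvate and lactate into each other. Ldhb, its heart subunit, ranked at 3.59 and 3.4% in the KO and at 3.48 and 4.54% in iHA-Foxk1 at day 3, and at 4.36 and 6.72% and at 29.1 and 13.1% at day 5. Ldha, its muscle subunit, ranked lower, at 29.7 and 38.7% and at 19 and 36.9% at day 3, and at 27.8 and 23.1% and at 65 and 25% at day 5. Genotypes overlapped for both genes at day 3. At day 5 both KO libraries were nearer the top for Ldhb on both scales (positions 2112 and 2833 against 4226 and 4451). Pdk1 and Pfkfb2, whose start lies beside Yod1, had this order on both scales at day 5 too, and Pgk1 the reverse on both. At day 3 Pdk1 overlapped and Pfkfb2 had the reverse order (positions 1209 and 2813 in the KO, 564 and 699 in iHA-Foxk1). At day 5 the order for Ldha depended on the scale, overlapping in percent and with both iHA-Foxk1 libraries nearer the top by position. At day 10 Ldhb had no summit, and Ldha had one in the Control libraries, at 56.6 and 72.9%.

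Around pyruvate dehydrogenase, Pdha1 (a subunit gene) and the kinases Pdk1 to Pdk4 had open starts in all 8 libraries of days 3 and 5. The phosphatase gene Pdp1 had an open gene end in the same 8. Pdha1 ranked at 17.3 and 10.1% in the KO and at 4.7 and 13.9% in iHA-Foxk1 at day 3, and at 10.4 and 13.3% and at 3.36 and 17.8% at day 5, with overlapping genotypes. It was seen at day 10 in 1 Control library, at 68.7%. Slc16a1 (MCT1, a lactate and pyruvate carrier) ranked at 17.7 and 11.4% and at 10.2 and 11.9% at day 3, and at 6.64 and 15.7% and at 45.9 and 10.6% at day 5. Its genotypes overlapped at both days, and at day 10 it was present in the Control libraries at 33.8 and 77.7%. Slc16a3 (MCT4, the exporter of glycolytic cells) ranked at 56.7 and 56.1% in the KO and at 46.5 and 50.9% in iHA-Foxk1 at day 3, and at 91.1 and 79.1% in the KO at day 5. It had no start summit in iHA-Foxk1 at day 5, nor at day 10. By position the day 5 summits of the KO stood far down their lists, at 44095 and 33321. Over equal numbers of summits no day 5 library of either genotype had this start. Its absence on the shorter iHA-Foxk1 lists therefore did not set that arm apart.

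For the comparison of genotypes each library was reduced to its highest-scoring summits, 53456 at day 3, 14519 at day 5 and 4028 at day 10, and summits within 250 bp were merged. KO-only denotes a region seen in both KO libraries and in neither comparison library, and control-only the opposite. With 2 against 2 libraries no p under 0.333 is possible within a day, so these calls carry no test. At day 3, 9 of 92 member regions (9.78%) were KO-only, against a background of 9.77% over all regions found in both libraries of an arm, and 8 (8.7%) were control-only, against 9.57%. At day 5, 0 of 30 were KO-only, against 12.1%, and 2 (6.67%) control-only, against 7.97%. At day 10, 1 of 9 (11.1%) was KO-only, against 9.88%, and 0 control-only, against 11.8%. Member shares at day 3 lay close to the background in both directions. Without the short iHA-Foxk1 list of day 5, and asking only for the remaining library of that arm, 8 of 83 member regions (9.64%) were KO-only and 21 (25.3%) control-only at that day. The same rule called 19.9% and 27.6% of all regions, so the rise was found over all regions too.

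**Figure D3:**
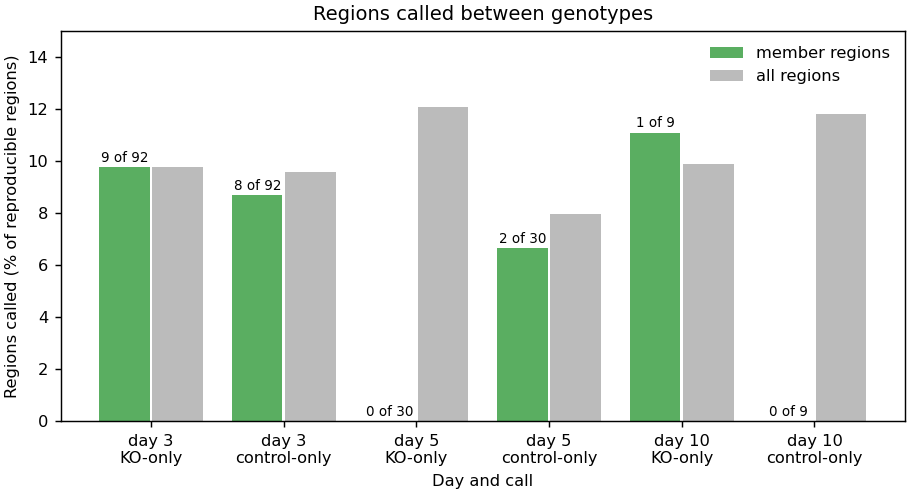
Percentage of regions called KO-only or control-only (vertical axis, from 0) at each day, for member regions (green, with counts) and all regions (grey). At day 3 the member bars, 9.78 and 8.7%, stand at about the height of the grey bars, 9.77 and 9.57%, and the day 10 bars rest on 9 regions.

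All 17 calls of day 3 were distal, and 0 of 30 gene-end regions was called in either direction, where 2.75% of all gene-end regions were KO-only and 2.27% control-only, so the count of 0 does not set the members apart. Among distal regions the KO-only share was 14.5% of 62, against 12.1%, and the control-only share 12.9%, against 12%. At day 5, 0 of 11 distal regions were KO-only, against 27.7%, and 2 (18.2%) control-only, against 17.3%. On the full lists the other genotype had no summit within 250 bp of any of the 17 calls of day 3. The call rule already asks for this among the 53456 compared summits, and the full day 3 lists held 53456 to 59006. The result was thus nearly fixed by the rule. It had none within 1 kb of 7 among the 9 KO-only and 5 among the 8 control-only regions. The calls of days 5 and 10 rested on rank alone, since each had a summit of the other genotype 3 to 38 bp away below the compared ranks. Most lists of those days were cut further than those of day 3, so the contrast between days cannot be told apart from the cut.

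Slc2a1 had the most calls, with 4 control-only and 2 KO-only regions at day 3, all outside the gene. The best-ranked control-only region, chr4:119088634-119088635, ranked at 27.7 and 31.4% in iHA-Foxk1 and lay 20111 bp upstream of the start. A KO-only region, chr4:119088149-119088150, lay 484 bp from it, at 53.1 and 72.5% in the KO. The former was seen in no other library, and the latter also in 1 KO library of day 5, at 82.3%. The other control-only regions lay 13619, 57551 and 64451 bp upstream, with mean ranks of 78.7, 73.7 and 86.3%. The other KO-only region lay 4027 bp beyond the far gene end and was present at day 5 in both KO libraries and 1 iHA-Foxk1 library. Distal regions 2852 and 36913 bp upstream and 1097 bp beyond the far end had summits in both genotypes at day 3.

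**Figure D4:**
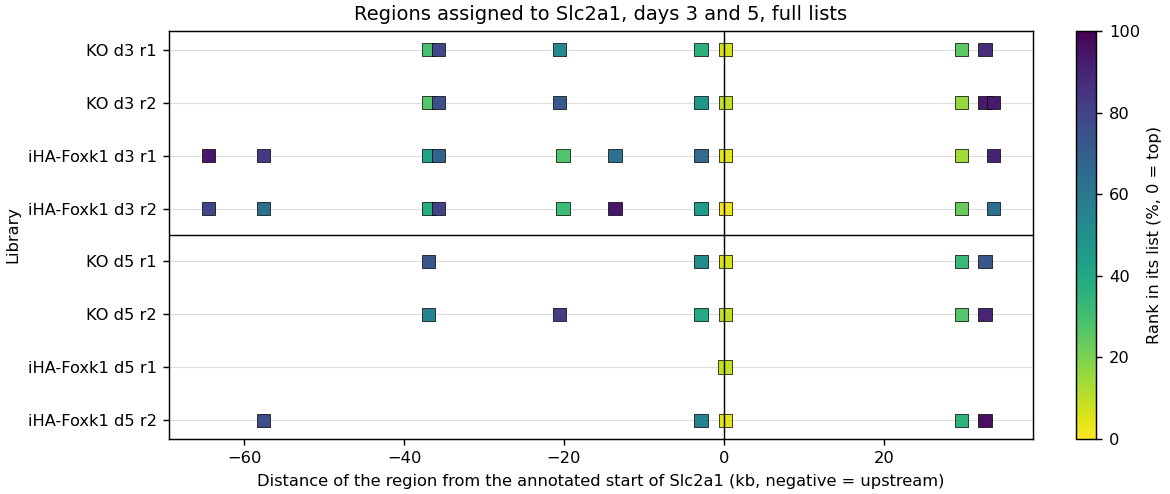
Regions assigned to Slc2a1 in each library of days 3 and 5 (rows), by distance from its annotated start in kb (horizontal axis, negative upstream), coloured by rank in the list. The region at the start is in all 8 rows, and the pair near 20 kb upstream sits at different positions in the KO and iHA-Foxk1 rows of day 3.

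At Hk2, inside the gene, the 2 genotypes likewise had neighbouring summits at day 3. The KO-only region chr6:82773080-82773088 lay 1370 bp from the start, at 41.4 and 36.1%, and the control-only region chr6:82773364-82773398 lay 1073 bp from it, at 46.5 and 33.9%, with 276 bp between the nearest summits. When summits were merged at 500 bp, 7 KO-only and 6 control-only regions were called among members at day 3. Of other distal KO-only regions, chr13:6735771-6735921 lay 86786 bp from Pfkp (52.5 and 48.2%) and chr3:104683141-104683142 lay 24679 bp from Slc16a1 (64.8 and 71%). Of other control-only regions, chr7:46838988-46838999 lay 3281 bp from an end of Ldha (24.6 and 37.5%) and chr6:142525044-142525097 lay 17113 bp from Ldhb (49.2 and 48.3%). Eno3, Pdha1, Pfkm and Ldhb had 1 KO-only region each, and Slc2a3 1 control-only region, with mean ranks of 67.4 to 86.8%.

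At day 5 both calls were control-only and inside genes, at Hk2 (chr6:82764079-82764135, 73.6 and 29%) and Slc2a3 (chr6:122742475-122742568, 73.1 and 32.6%). The day 10 call was the Pkm start (chr9:59656363-59656481), at 42.5 and 82.1% in the KO. The Control libraries also had a summit there, at 75.5 and 86.6% of lists that were longer, and so outside the 4028 compared.

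The number of summits per gene was compared over all 12 libraries by exchanging genotypes inside each day (two-sided exact permutation test), with 216 arrangements and a smallest p of 0.00926. After Benjamini-Hochberg adjustment 0 of 18634 genes passed (0%), and 43 had an unadjusted p under 0.05, of which 0 were members. The smallest p of the design limits what can pass after adjustment over all genes. The member with the lowest p was Pfkfb3, the most kinase-active of its family (KO minus control −0.833 summits, unadjusted exact permutation p = 0.0556). It had 5 and 6 summits in the KO against 6 and 7 in iHA-Foxk1 at day 3, 3 and 3 against 4 and 4 at day 5, and 0 and 0 against 0 and 1 at day 10. Slc2a1 had 7 and 8 against 10 and 10 at day 3 and overlapping numbers at day 5 (−0.667 over days, exact permutation p = 0.361).

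Members took 17.1 ± 1.2 of 10000 compared summits in the KO and 16.6 ± 0 in iHA-Foxk1 at day 3 (SD, n = 2 each). At day 5 over 14519 summits per library the KO value was 21 ± 1.41 (20 and 22) and the iHA-Foxk1 value 24.5 ± 0.495 (24.8 and 24.1), without overlap. Over the 4028 highest-scoring summits of each library the order did not hold, with 39.7 and 34.8 in the KO and 24.8 and 42.2 in the iHA-Foxk1 lists. Over 14519 summits the distal share at day 5 was 7.58 ± 0.976 against 10.3 ± 0.962, and the gene-end share 13.4 ± 0.495 against 14.1 ± 1.48. At day 10 the values were 22.3 ± 0 in the KO and 23.6 ± 1.77 in the Control.

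Of the 161 member regions found over all lists, 7 (4.35%) were in all 12 libraries, against 1.59% of 104822 regions. They lay at Hif1a, Pgam1, Pdp1, Slc2a1, Pfkfb4, Pgk1 and the distal site of Slc2a3. The Pgk1 region (chrX:106186893-106186988, 160 bp from the gene end) stood at positions 1617 and 1267 of the KO lists and 102 and 132 of the iHA-Foxk1 lists at day 3. It stood at 1599 and 2029 against 159 and 94 at day 5, and at 1137 and 1353 in the KO against 218 and 249 in the Control at day 10. Both comparison libraries were thus nearer the top than both KO libraries at each day. Of the 1665 regions in all 12 libraries, 1.38% had this order and 0.841% the reverse, and of the 7 member regions Pgk1 alone had it. The comparison of positions was chosen after the values were seen and has no test. Pgk1 promoter sequence is widely used in expression and selection cassettes. The labels do not say whether either line carries one.

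**Figure D5:**
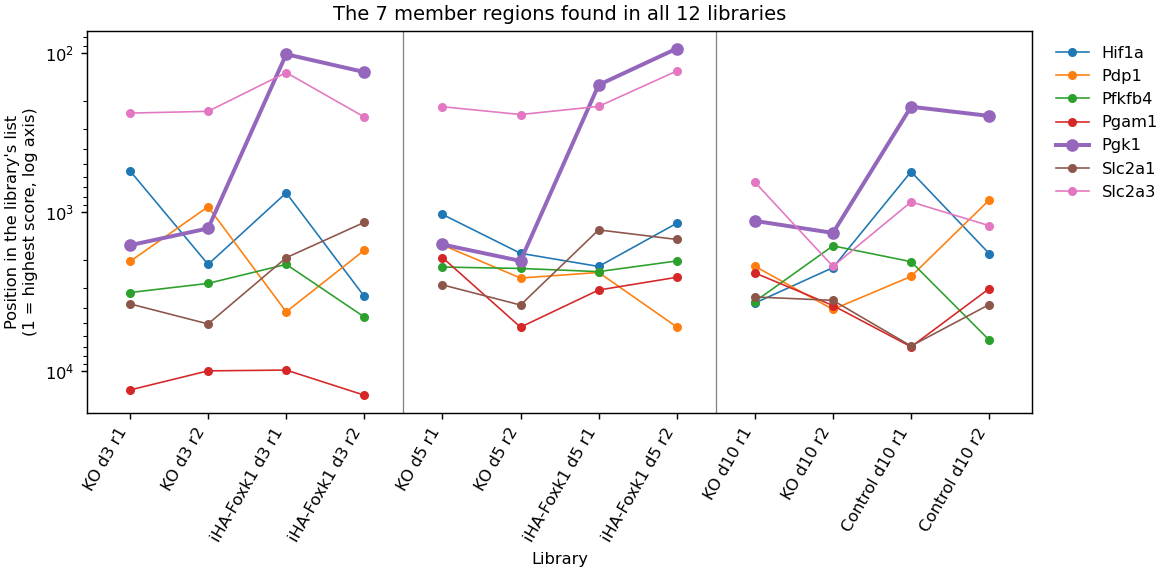
Position in the library's list (log axis, 1 is the highest score) of the 7 member regions found in all 12 libraries, with libraries along the horizontal axis. Pgk1 (thick line) stands at 94 to 249 in the 6 comparison libraries and at 1137 to 2029 in the 6 KO libraries, and the other lines cross.

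Between days 3 and 5, libraries were compared over their 14519 highest-scoring summits. In the comparison arm 5 of 38 member regions (13.2%) were found at day 3 only, against 22.5% of all regions, and 4 (10.5%) at day 5 only, against 13.4%. In the KO 4 of 33 (12.1%) were found at day 3 only, against 10.1%, and 3 (9.09%) at day 5 only, against 9.63%. A region just beyond Hif1a was called at day 3 only in both arms (iHA-Foxk1 14 and 11.2%, KO 15.7 and 24.2%). In iHA-Foxk1 no day 5 summit lay within 14557 bp of it, whereas in the KO both day 5 libraries had it at lower ranks (53.1 and 60.5%), so that call rested on rank alone. At Aldoc, a region within 94 bp of the start was called at day 5 only in both arms (iHA-Foxk1 98.7 and 31%, KO 27.2 and 29.1%). The day 3 libraries also had this start, at 44.1 and 37.3% in iHA-Foxk1 and 29.5 and 40.5% in the KO. Those summits lay below the compared ranks, so both Aldoc calls rested on rank alone.

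Gapdh had a region 106 bp past its start at day 5 only in iHA-Foxk1 (chr6:125165610-125165724, 87.9 and 14%), and one at the same place at day 5 only in the KO (20.2 and 22.5%). In iHA-Foxk1 it also had a region at day 3 only, upstream of the start (chr6:125166534-125166562, signed distance −775 bp, 25 and 26.7%). Other gene-end calls were Slc2a3 (chr6:122801701-122801796) at day 3 only in iHA-Foxk1 and Pdk4 (chr6:5482521-5482534), 824 bp from its far end, at day 3 only in the KO. The Ldha start was called at day 5 only in the KO (27.8 and 23.1%). Every one of these gene-end and Ldha calls had a summit of the other day below the compared ranks.

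Other genes of the pathway were taken from a list kept apart from the members. Of 27 such genes 12 (44.4%) had a gene-end summit in every library of days 3 and 5. Over all genes the share was 34.4%. At day 3, 9 of their 42 regions (21.4%, against 9.57% of all regions) were control-only, near Slc16a7, Dlat, Bsg, Hkdc1, Eno4 and Dld, and 1 (2.38%, against 9.77%) was KO-only, near Pgk2. Control-only shares were also above that of all regions for hypoxia pathway genes (5 of 28, 17.9%) and mesoderm markers (9 of 26, 34.6%), with KO-only counts of 0 and 3. They were below it for genes of the tricarboxylic acid cycle (0 of 24) and the pentose phosphate pathway (0 of 13). The same held for fibroblast markers (1 of 19, 5.26%) and pluripotency markers (3 of 34, 8.82%). Cardiomyocyte markers had 2 of 10 regions control-only (20%) and 4 KO-only (40%). Dlat and Dld encode further subunits of the pyruvate dehydrogenase complex, and Bsg the partner that brings MCT1 and MCT4 to the membrane. The difference between these genes and the members was not tested.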

How the data were processed

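ATAC-seq summit lists of 12 libraries were used. The submitters' processing notes name Bowtie2 2.2.4, MACS2 (with no version) and the mm10 build, without their settings. The deposited score is on a −log10 scale, of a p-value or a q-value; the sources used here do not say which. The lowest scores were 1.3 to 1.33 at days 3 and 5 and 1.78 to 1.85 at day 10. Lists were called per library, not pooled. No read counts were used, so depth is unknown and no counting interval is given.

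Summits on chromosomes 1 to 19 and X were assigned to the nearest protein-coding gene end within 100 kb (RefSeq, GRCm38.p6). All 33 symbols matched, 31 of them with promoter entries, which gave annotated starts. Gene-end occupancy and starts used full lists. Genotype and day calls used equal numbers of top-ranked summits merged at 250 bp. Genes were named with per-library values where a gene end was open in some but not all libraries of days 3 and 5 or a region was called between genotypes. Coordinates are given for called gene-end regions and the 4 best distal calls per day and direction. Summit numbers per gene were compared by exact permutation within days with Benjamini-Hochberg adjustment over all genes. Region calls and the permutation were tested on simulated data. Alternatives were other numbers of summits, merging distances, score minimum, absence rule, assignment distance, gene-end width and libraries left out. Members and lists were chosen with earlier results of these data known. Python 3.11.15, numpy 2.4.6, pandas 2.3.3 and matplotlib 3.10.9 were used.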

Additional observations from a re-analysis of the deposited data

How the results depend on the processing

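Counts of called member regions are small and moved with the settings. At day 3, assignment within 20 kb left 5 regions in each direction (5 KO-only, 5 control-only). At day 5, KO-only rose to 16 and control-only fell to 1 over full lists, and control-only fell to 0 with the number of summits divided by 2, with absence judged on full lists and with a score of at least 5. At day 10, KO-only was 0 under all summits, N divided by 2, merging at 100 bp, absence on full lists and a score of at least 5. There, control-only was 9 with all summits and 1 with N divided by 2 or merging at 100 bp. Between days, the comparison arm had 20 day 3 only and 1 day 5 only regions with all summits, 0 and 1 with N divided by 2, and 1 day 5 only at 100 bp. The KO had 10 and 7 with all summits, 0 day 3 only with N divided by 2, and 8 and 9 at 100 bp. In the lists of unequal length these counts follow list length by construction.

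Leaving out 1 library asks for the remaining library alone, which raises counts by construction. Ranges were 12 to 16 KO-only and 9 to 15 control-only at day 3, the highest without KO replicate 1 and without iHA-Foxk1 replicate 2. They were 2 to 8 and 2 to 21 at day 5, both highest without iHA-Foxk1 replicate 1, and 2 to 3 and 1 to 3 at day 10. Without iHA-Foxk1 day 5 replicate 2 the comparison arm reached 12 day 3 only and 14 day 5 only regions (ranges 5 to 12 and 5 to 14). In the KO the ranges were 4 to 7, highest without day 3 replicate 2, and 4 to 5. Over numbers of summits equal within each day, gene ends open in every library numbered 24 to 25, 19 to 19 and 1 to 3 at days 3, 5 and 10, and 2 by the start alone at day 10. Open starts at days 3 and 5 numbered 27 to 29, 27 over compared summits and 25 within 500 bp. The left-out gene-end counts, the counts of starts, orders by position, background shares with a library left out and day 5 shares over the shortest list length were chosen after seeing the data.

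No member passed the adjusted permutation test under any setting (0 to 0 over libraries left out). The smallest possible p nearly fixed this result in advance, so it does not show that the result is stable. Unadjusted, 2 members (Pfkfb3 and Aldoa) had p under 0.05 with all summits as a share of the list, where 6.21% of genes did, and 0 to 1 with a library left out, the 1 being Pfkfb3 without Control day 10 replicate 1. Without day 10 the smallest possible p is 0.0556. No pairing by replicate number was seen (correlation of deviations −0.0146, −0.0104 and −0.0219 at days 3, 5 and 10 over genes), though 2 libraries per group limit this check. With the replicate block (64 arrangements, smallest p 0.0312) 0 members passed, which that smallest p likewise nearly fixed.

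Without read counts, a missing summit says only that no peak passed the caller's threshold, and the short lists of day 10 and of 1 day 5 library limit what absence there can show.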
